A study of Mus musculus with 12 samples.

Results

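The features described here are the core of the sampled gut community, the 64 amplicon features that had at least 1 read in each of 12 mouse libraries. They were chosen by their read counts, as those present in every library, with earlier results of these data known, and they are 64 of 5306 features with reads in these libraries. Each feature stands for 1 type of amplified fragment of the bacterial 16S ribosomal RNA gene. The deposited table identifies features by hexadecimal IDs that are paired with neither a sequence nor a taxon. Members are therefore called core feature 1 to core feature 64, in falling order of their mean share over the 12 libraries, and no bacterial name is given to any of them.

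Every bacterium has the 16S gene, whose V3 and V4 stretches vary from taxon to taxon. Bacteria that recur in every animal of a colony are commonly called a core microbiota, and they usually include the dominant residents of the lower gut. The lumen of the cecum is poor in oxygen and is populated mainly by anaerobes, and some of the oxygen that reaches these bacteria comes from the host's mucosa. An amplicon share is relative, so more of a bacterium and less of the others cannot be told apart, and bacteria with more gene copies weigh more.

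The study compared mice in hypoxia with mice in normoxia, in work on intestinal injury under low oxygen. All were C57BL/6 mice aged 49 days, with 6 libraries labelled hypoxia and 6 labelled normoxia. DNA came from luminal material of the ileocecus, while the source label names feces. No oxygen level or cage is given in the labels, and hypoxia samples carry Hyp48 in their titles with no explanation of the number. Libraries held 22704 to 61337 counted reads in hypoxia and 48981 to 68718 in normoxia. Hypoxia 4 stood apart, with 22704 reads, 38.2% of its valid tags counted and 78.6% of bases at quality Q30. The lowest normoxia library was normoxia 6, with 70.8% of tags counted. These measures also differed between the groups as a whole. The median of tags counted was 74.6% in hypoxia and 84.8% in normoxia, with ranges of 38.2% to 83.6% and 70.8% to 88.2%. Bases at Q30 had medians of 90.4% and 93.2%. The part of this difference in the comparison of the groups was not tested.

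Core features took up more of the reads in hypoxia. Their summed share was 37.8% to 52.8% in the hypoxia libraries, with a median of 42.0%, and 21.5% to 34.2% in the normoxia libraries, with a median of 28.7%. All 6 hypoxia libraries lay above all 6 normoxia libraries. The difference in means was 14.96 percentage points, where the pooled SD within groups was 5.20, and no test is given because the members were chosen with this sum in view. Core features also led the libraries more often: 6 to 9 of the 10 largest features of a hypoxia library were members, against 3 to 6 in a normoxia library. Of the features with a mean share of at least 1%, 14 of 16 in hypoxia and 6 of 13 in normoxia belonged to the core.

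Hypoxia 4 had the highest core share, 52.8%, and the lowest share of tags counted. Within hypoxia the core share and the share of tags counted gave r = -0.84 (exact permutation p = 0.0972, adjusted over 6 relations 0.194) and rho = -0.26 (exact permutation p = 0.658, adjusted 1; n = 6). Leaving out hypoxia 1 and 4, the libraries farthest from the median of tags counted, r was -0.73. Within normoxia r was 0.45 (exact permutation p = 0.429, adjusted 0.515; n = 6) and rho was 0.03 (exact permutation p = 1, adjusted 1), and r was -0.26 without normoxia 3 and 6. With total reads in place of tags counted, r within hypoxia was -0.83 (exact permutation p = 0.0861, adjusted 0.194; n = 6) and 0.05 without hypoxia 2 and 4. The part of tag loss in the core share was not tested further. Without hypoxia 4 the hypoxia mean was 41.4% ± 2.38 (SD, n = 5), and the difference between groups was 13.1 points. Without both hypoxia 4 and normoxia 6 it was 11.7 points. These values keep the 64 members, which were chosen with hypoxia 4 included. Chosen anew without hypoxia 4, the core had 78 members. It held 43.8% ± 2.39 in hypoxia (SD, n = 5) and 31.2% ± 5.50 in normoxia (SD, n = 6). The 14 added features held 2.47% in hypoxia and 2.93% in normoxia.

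**Figure D1:**
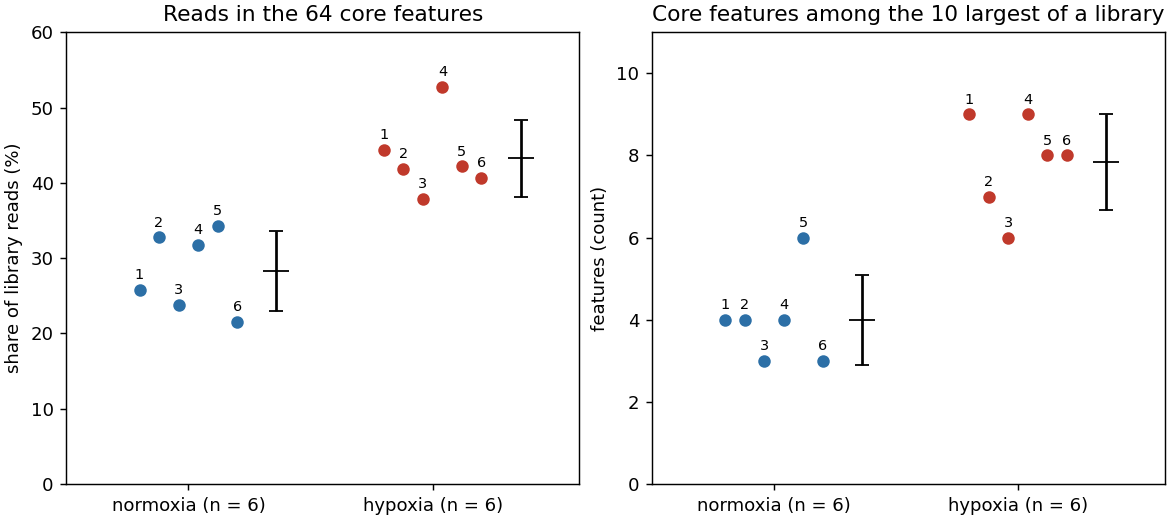
Left, percent of a library's reads in the 64 core features. Right, the number of core features among the 10 largest features of a library. Each point is 1 library, marked with its replicate number, and bars give mean ± SD of 6 libraries. The hypoxia points run from 37.8% to 52.8% on the left, above the normoxia points at 21.5% to 34.2%.

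The gain of the core was spread over most of its members, with the largest part in a few. Of the 64, 48 had a higher mean share in hypoxia and 16 a lower one, that is 75.0% higher. Among all 554 tested features 50.4% had a higher mean in hypoxia. The members were chosen by their counts in these libraries, with their summed share in view, so this contrast is a description and not a test. Members with a higher mean added 21.6 percentage points in all, and those with a lower mean amounted to -6.69. The 10 largest gains summed to 13.2 points, 61.1% of all gains. Core feature 1 alone accounted for 3.08 points, core feature 6 for 1.81, core feature 2 for 1.46 and core feature 12 for 1.26. The losses were more concentrated still: core feature 3 differed by -3.65 points between the group means, 54.6% of all losses. Leaving that 1 feature out, the summed difference of the other members was 18.6 points.

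**Figure D2:**
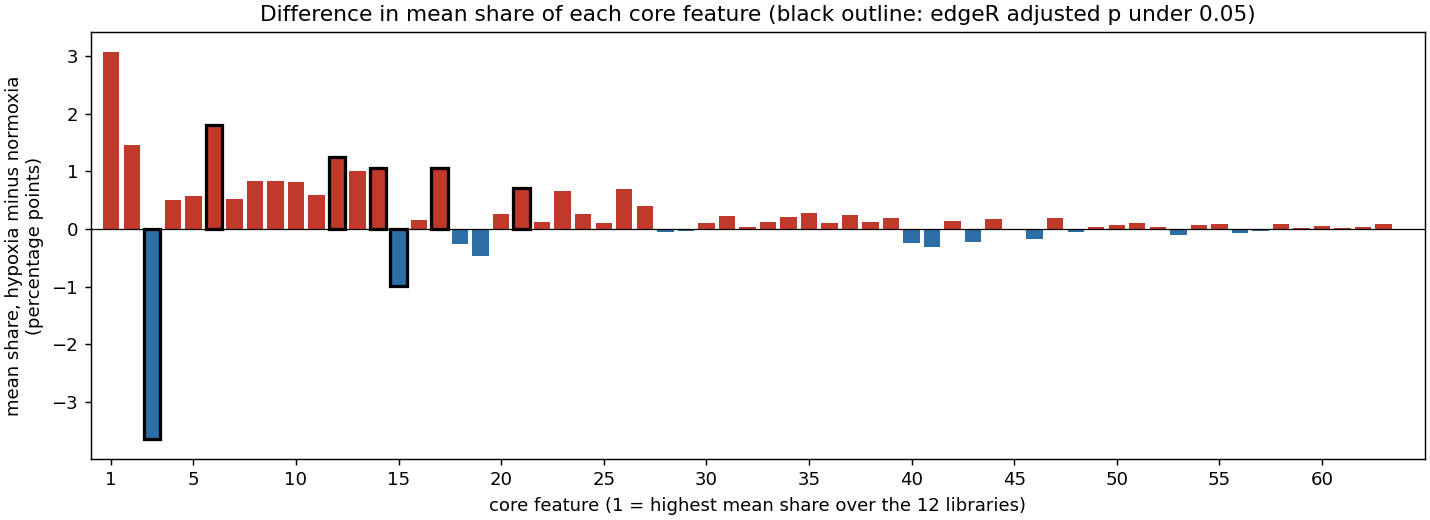
Mean share in hypoxia minus mean share in normoxia, in percentage points, for each of the 64 core features in order of mean share. Red bars are higher and blue bars lower in hypoxia, and a black outline marks edgeR adjusted p under 0.05. Core feature 1 gave the largest gain, 3.08 points, and core feature 3 the largest loss, -3.65 points.

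Individual members were tested by edgeR together with every other feature that reached 10 counts in 4 or more libraries, 554 in all, and all 64 passed that filter. Of the members, 5 rose and 2 fell in hypoxia (edgeR adjusted p under 0.05), or 10.9%. Over all tested features 107 passed, or 19.3%, with 9.21% higher and 10.1% lower. Most of those had reads in 1 group alone, which no member can have. Among the 462 tested features with reads in both groups, 3.25% passed, 1.73% higher and 1.52% lower. Without an adjustment, 8 members were higher and 5 lower at p under 0.05 by edgeR. That is 13 of 64 members, beside 146 of all 554 tested features. The 146 include features with reads in 1 group alone, so the 2 shares are not compared.

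Core feature 6 was the largest member that rose. It is feature d1936a86defac30e61a0595fab1b5db3 of the deposited table. Its share was 1.11% to 3.74% in hypoxia, with a median of 2.12%, and 0.198% to 1.07% in normoxia, with a median of 0.258%. The groups did not overlap, and normoxia 4 held the highest normoxia value by far. The log2 fold change was 2.10 ± 0.58 (SE, n = 6 each; edgeR adjusted p = 0.022). Its rank within the core moved from 19 by mean share in normoxia to 3 in hypoxia. Leaving out hypoxia 1, hypoxia 3, normoxia 3 or normoxia 5 took the adjusted p above the threshold (edgeR adjusted p = 0.0647, 0.0835, 0.0623 and 0.0532), with log2 fold changes from 1.70 to 2.33 over all 12 omissions.

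The next largest was core feature 12, feature 0799dcf0a4d8fd119a29e3399585e23d. It held 0.742% to 2.48% in hypoxia, with a median of 1.34%, and 0.0712% to 0.645% in normoxia, with a median of 0.157%. Again the groups did not overlap, and normoxia 3 was the highest of its group. The log2 fold change was 2.25 ± 0.67 (SE; edgeR adjusted p = 0.0288). The call was lost without hypoxia 2, hypoxia 6, normoxia 4 or normoxia 5 (edgeR adjusted p = 0.0705, 0.0518, 0.0768 and 0.0778).

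Core features 14, 17 and 21 passed more narrowly. Core feature 14 ran from 0.715% to 2.02% in hypoxia (median 1.31%) and from 0.0572% to 0.617% in normoxia (median 0.178%), and its log2 fold change was 1.95 ± 0.65 (SE; edgeR adjusted p = 0.0446). Core feature 17 ran from 0.615% to 2.12% (median 1.09%) and from 0.0239% to 0.480% (median 0.0496%), with 2.65 ± 0.88 (SE; edgeR adjusted p = 0.0456). Core feature 21 ran from 0.285% to 1.42% (median 1.03%) and from 0.116% to 0.440% (median 0.18%), with 1.92 ± 0.65 (SE; edgeR adjusted p = 0.0482). The groups were separate for core features 14 and 17, while hypoxia 3 put core feature 21 within the normoxia range. These calls stood in 2, 1 and 2 of the 12 fits that left out 1 library: core feature 14 without hypoxia 5 or normoxia 1, core feature 17 without normoxia 3, and core feature 21 without hypoxia 3 or hypoxia 4. In normoxia, core feature 17 was split, at 0.480% and 0.337% in normoxia 3 and 5 and at 0.0239% to 0.0674% in the others.

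Core feature 3, feature 29d41f7724da8f39aa8dcdf8104add95, was the largest member that fell. It was the leading core feature of the normoxia group, with 0.968% to 6.36% (median 4.94%), and ranked 19 in hypoxia, with 0.331% to 1.75% (median 0.549%). Normoxia 3 was the only normoxia library within the hypoxia range, and hypoxia 1 the only hypoxia library above 1%. The log2 fold change was -2.74 ± 0.61 (SE, n = 6 each; edgeR adjusted p = 0.0104). It passed the threshold in all 12 fits without 1 library, with log2 fold changes from -3.71 to -2.54.

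The other member that fell was core feature 15, feature d49dbc8289cbf7ee4dda8696f9613e38. Its fall rested on a few normoxia libraries. Normoxia 1 and 2 held 3.46% and 2.61%, the other normoxia libraries 0.127% to 0.624%, and the hypoxia libraries 0.0985% to 0.365%. The log2 fold change was -2.63 ± 0.83 (SE; edgeR adjusted p = 0.0327), with overlapping groups. It was -2.10 without normoxia 1 (edgeR adjusted p = 0.128) and -2.31 without normoxia 2 (edgeR adjusted p = 0.101). The call was also lost without hypoxia 2, 4, 5 or 6 (edgeR adjusted p = 0.0610, 0.0668, 0.0606 and 0.0705), and an exact permutation test on its shares gave an adjusted p = 0.222.

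**Figure D3:**
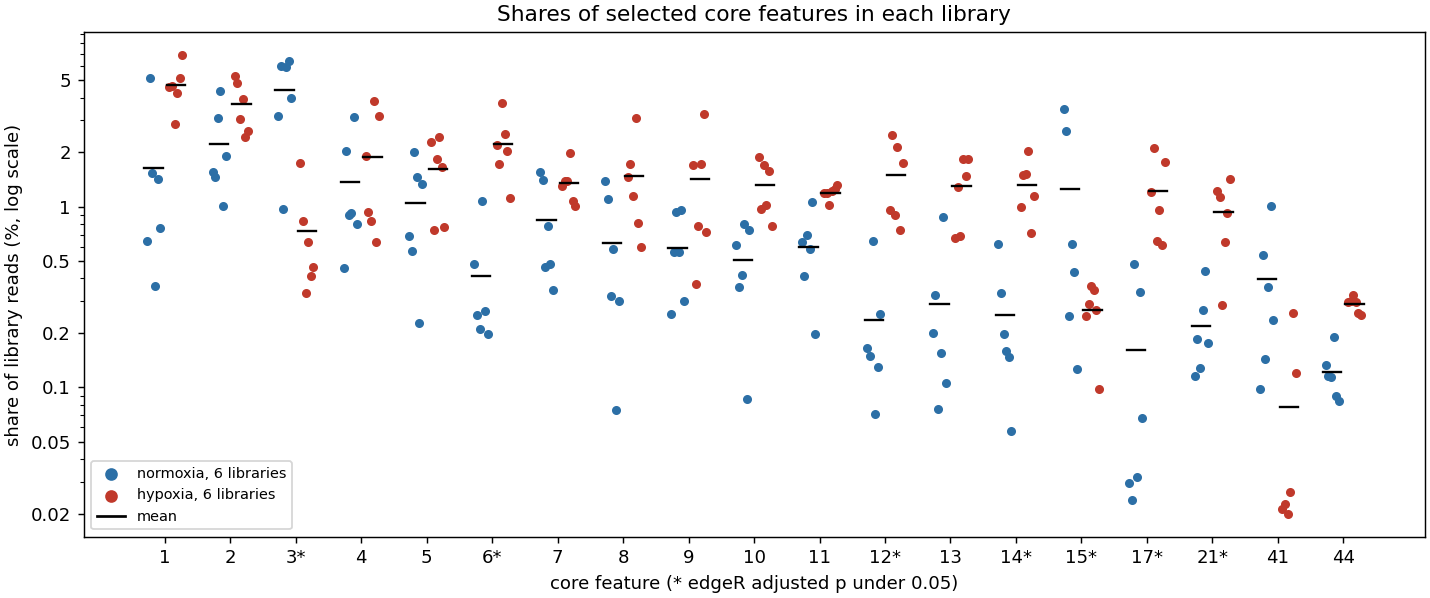
Share of library reads, in percent on a log scale, of the 14 largest core features, the other members past the edgeR threshold (asterisks), and core features 41 and 44, which had a very high and a very low spread. Points are the 6 normoxia (blue) and 6 hypoxia (red) libraries and black lines their means. Core features 6, 12, 14 and 17 show separate groups, and core feature 3 is lower in hypoxia with 1 normoxia library in the hypoxia range.

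The 2 largest members had large mean differences that did not pass the test. Core feature 1, the largest, held 2.84% to 6.87% in hypoxia (median 4.62%) and 0.362% to 5.12% in normoxia (median 1.09%). Normoxia 2, at 5.12%, was the single normoxia library above the lowest hypoxia value. The log2 fold change was 1.19 ± 0.61 (SE; edgeR adjusted p = 0.238), and without normoxia 2 it passed the threshold at 2.13 (edgeR adjusted p = 0.0183). It did not pass in the other 11 fits without 1 library, and was lowest, at 0.56, without normoxia 4 (edgeR adjusted p = 0.680), at 0.73 without normoxia 3 and at 0.75 without hypoxia 1. Core feature 2 held 2.42% to 5.29% in hypoxia (median 3.48%) and 1.01% to 4.36% in normoxia (median 1.73%), ranges that overlap widely, and its log2 fold change was 0.43 ± 0.48 (SE; edgeR adjusted p = 0.665).

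Core features 4, 5, 7, 8 and 9 had smaller mean differences, and they did not pass either. Their mean shares in hypoxia were 1.88%, 1.62%, 1.35%, 1.47% and 1.42%, against 1.37%, 1.05%, 0.838%, 0.629% and 0.593% in normoxia. The edgeR adjusted p ran from 0.41 to 0.941, and the groups of all 5 overlapped. The difference of core feature 4, 0.511 points, was 0.121 without hypoxia 4, 0.253 without hypoxia 6, 0.327 without normoxia 1 and 0.863 without normoxia 5. That of core feature 8, 0.84 points, was 0.515 without hypoxia 4, and that of core feature 9, 0.827 points, was 0.463 without hypoxia 5. Without both hypoxia 4 and normoxia 6, core features 4, 7 and 8 differed by 0.0059, 0.293 and 0.449 points. Core feature 10 was nearly separate, with 5 of 6 hypoxia libraries above every normoxia library, at 1.32% ± 0.456 against 0.503% ± 0.267 (SD, n = 6 each), and did not pass (edgeR adjusted p = 0.287). Its log2 fold change of 1.12 was 0.63 without hypoxia 1. Core feature 13 was at 0.67% to 1.84% in hypoxia and 0.0757% to 0.878% in normoxia, and its log2 fold change was 1.87 ± 0.66 (SE; edgeR adjusted p = 0.0599). Its highest normoxia value, 0.878% in normoxia 5, was far above the next, 0.325%, and without that library the log2 fold change was 2.34 (edgeR adjusted p = 0.0272).

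For some members the groups separated completely. For 8 members, core features 6, 12, 14, 17, 27, 35, 44 and 63, every hypoxia share was above every normoxia share, which is 12.5% of members and compares with 4.87% of all tested features and 4.76% of those with reads in both groups. Normoxia lay wholly above hypoxia for 0 of 64 members, or 0%, against 3.97% and 1.73%. Shares that low leave few to be found among 64 features, so the 0 is not read as a result about the members. Nor are the 8 read as an excess. A feature with no reads in some library of each group cannot separate, while members have reads in every library by the rule. The sets are therefore not alike, and the rule used these same counts. An exact permutation test on shares over the 462 equal splits, adjusted over the 554 features, passed 11 members as higher and 1 as lower, where it passed 5.78% and 5.23% of all tested features, and 5.84% and 3.25% of those with reads in both groups. Among the separated members are small ones. Core feature 63 had 35 to 62 reads in each hypoxia library and 2 to 18 in each normoxia library, and its log2 fold change was 2.44 ± 1.01 (SE; edgeR adjusted p = 0.122). Core feature 44 stood at 0.25% to 0.323% in hypoxia and 0.0837% to 0.191% in normoxia.

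The number of higher members depended on the scaling. Relative to the library total 48 members had a higher mean in hypoxia, and relative to core reads alone 35 had. With TMM scaling the median log2 fold change was 0.31 over the members and -0.25 over all tested features, and 42 members had a positive value. Leaving out 1 library, the members' median ran from -0.003 (without hypoxia 1) to 0.42, that of all tested features from -0.65 to 0.001, and the positive members from 32 to 46. With library size alone the medians were 0.53 and -0.09, with DESeq2 0.45 and -0.12, and with centred log ratios 0.70 and 0.20. The gap between the medians of members and of all tested features was 0.56, 0.63, 0.57 and 0.50 under these 4 scalings, and 0.40 to 0.84 without 1 library. With TMM scaling and no filter on low counts the medians were 0.23 over the members and 0.44 over all features, and the gap turned to -0.21. Within core reads, core feature 3 held 15.04% of the core in normoxia and 1.69% in hypoxia, and core feature 6 held 1.43% and 5.21%.

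The order of members was more alike between hypoxia libraries. Spearman's rho over the 64 members, computed for each pair of libraries and given as a description across features, averaged 0.78 within hypoxia (15 pairs, 0.652 to 0.857), 0.514 within normoxia (15 pairs, 0.222 to 0.833) and 0.459 between groups (36 pairs, 0.0647 to 0.712). The lowest rho within normoxia and the lowest between groups both involved normoxia 5. Without that library, a choice made after seeing the data, the means were 0.597 within normoxia (10 pairs, 0.377 to 0.833) and 0.518 between groups (30 pairs, 0.288 to 0.712). Between the group means rho was 0.65, and 6 of the 10 leading members were shared. Core features 1, 2 or 6 led the core in every hypoxia library, with core feature 1 first in hypoxia 4, 5 and 6. In normoxia core feature 3 led in normoxia 2, 4, 5 and 6, core feature 15 in normoxia 1 and core feature 2 in normoxia 3. The leading member held 8.02% to 16.9% of core reads in hypoxia and 12.9% to 18.6% in normoxia. The effective number of members, the exponential of the Shannon index over core reads, was 31.2 to 37.8 in hypoxia and 25.0 to 35.8 in normoxia.

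Members also varied less between hypoxia libraries. The coefficient of variation (CV, the SD over the mean of 6 shares) had a median of 45.1% in hypoxia and 69.4% in normoxia, and it was lower in hypoxia for 48 of 64 members, or 75.0%. These counts are a description, with no test. Over the 462 tested features with reads in both groups it was lower in hypoxia for 52.4%, with medians of 113% in both groups. Those features can lack reads in some libraries, which raises a CV and which members cannot, so the sets are not alike. Counting error alone would give the members a median CV of 7.6% in hypoxia and 8.21% in normoxia. The number of members with a lower CV in hypoxia ran from 40 without normoxia 5 to 50 without hypoxia 4. Normoxia 5 held the highest value of its group for 27 members, and hypoxia 4 for 21 members. The lowest hypoxia value was in hypoxia 6 for 21 members.

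The member with the lowest CV within hypoxia was core feature 11, at 1.02% to 1.31% in hypoxia, a CV of 8.04% where counting error gives 4.39%. In normoxia it ran from 0.198% to 1.06%, a CV of 48.5%. By the mean CV of both groups core feature 44 was the steadiest, with CVs of 9.59% in hypoxia, close to the 8.94% of counting error, and 31.9% in normoxia. Core feature 49 had 20.4% and 40.9%. Within normoxia the lowest CV was that of core feature 38, 15.3%, which had 51.1% in hypoxia. At the other end, core feature 37 had a CV of 160% in hypoxia, from 0.0326% to 1.76%, and 80.9% in normoxia, from 0.00781% to 0.333%. Its log2 fold change was 1.11 ± 1.05 (SE; edgeR adjusted p = 0.597) and -0.47 without hypoxia 6, the library at 1.76%. Core feature 41 was at 0.02% to 0.0264% in 4 hypoxia libraries and at 0.259% and 0.119% in hypoxia 5 and 6, against 0.0984% to 1.01% in normoxia, and its log2 fold change was -2.56 ± 0.97 (SE; edgeR adjusted p = 0.087). It passed the threshold without normoxia 3 and without hypoxia 5 (edgeR adjusted p = 0.0463 and 0.0299). Core feature 28 varied 38.1-fold within normoxia, up to 1.46% in normoxia 6, and 6.12-fold within hypoxia.

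**Figure D4:**
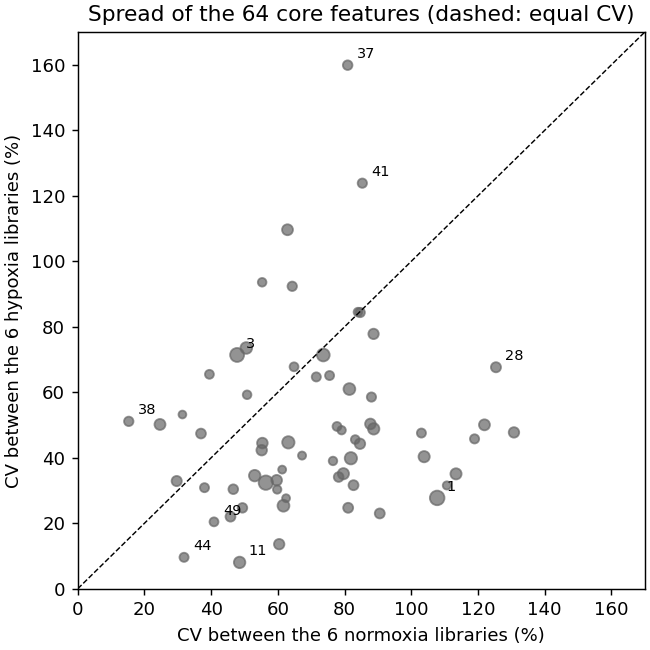
Coefficient of variation of each core feature's share between the 6 normoxia libraries (horizontal, percent) and between the 6 hypoxia libraries (vertical, percent). Point area grows with mean share, numbers name some members, and the dashed line marks equal values. Of the 64 points, 48 lie below the line.

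Some members moved together from library to library. For each of the 2016 pairs of members, the correlation of log2 shares centred within each group was tested by exact permutation of libraries within groups. After Benjamini-Hochberg adjustment over all pairs 6 passed, all of them positive, and 206 had an unadjusted p under 0.05. The median r over all pairs was 0.03, and no negative pair passed. Libraries share their totals, so shares of different members are not independent of each other. With centred log ratios over the members 3 of the 6 pairs passed, and with ranks 2 did.

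Core features 24 and 29 gave r = 0.98 (exact permutation adjusted p = 0.00389) and, on ranks, rho = 1 (exact permutation adjusted p = 0.00778). Within hypoxia r was 0.95 (exact permutation p = 0.00417, n = 6) and within normoxia 0.99 (exact permutation p = 0.00139, n = 6). Core features 2 and 20 gave r = 0.98 (exact permutation adjusted p = 0.00583) and rho = 0.97 (exact permutation adjusted p = 0.0428), with r of 0.96 in hypoxia and 0.99 in normoxia. Core features 10 and 35 gave r = 0.98 (exact permutation adjusted p = 0.0194) and rho = 0.94 (exact permutation adjusted p = 0.0747), with r of 0.95 and 0.99. Without the 2 libraries farthest from the median of the first member, r was 0.96, 0.96 and 0.93 for these pairs. Leaving out 1 library, it ran from 0.966 to 0.994, from 0.971 to 0.991 and from 0.944 to 0.989.

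The other pairs held less evenly. Core feature 7 went with core feature 23 (r = 0.96, exact permutation adjusted p = 0.0318; rho = 0.83, exact permutation adjusted p = 0.456) and with core feature 15 (r = 0.95, exact permutation adjusted p = 0.0263; rho = 0.94, exact permutation adjusted p = 0.0747). Within hypoxia these were 0.82 and 0.69, and within normoxia 0.98 and 0.99. Core feature 23 had only 8, 6 and 4 reads in normoxia 3, 5 and 6. Core features 15 and 23 gave r = 0.92 with each other and did not pass (exact permutation adjusted p = 0.0899). Core features 48 and 49 gave r = 0.85 (exact permutation adjusted p = 0.0318; rho = 0.86, exact permutation adjusted p = 0.373). Without the 2 farthest libraries r was 0.94 for core features 7 and 23, 0.89 for 7 and 15, and 0.88 for 48 and 49.

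For 2 of these pairs, the proportion of the members was nearly fixed whatever their level. Core feature 2 was 4.68 to 5.89 times core feature 20 in the normoxia libraries and 4.39 to 5.66 times in the hypoxia libraries, while its own share ranged from 1.01% to 5.29%. The SD of that log2 ratio was 0.12 in normoxia and 0.14 in hypoxia, where counting error gives 0.11 and 0.09. Core feature 10 was 2.17 to 3.56 times core feature 35 in normoxia and 2.43 to 3.31 times in hypoxia, while its share ranged from 0.0867% to 1.89%. Its log2 ratio had an SD of 0.24 and 0.17, where counting error gives 0.20 and 0.13. The mean log2 ratios of these pairs differed between groups by 0.03 and 0.08 (exact permutation p = 0.649 and 0.532, n = 6 each).

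Core features 24 and 29 differed in proportion between the groups. The ratio of 24 to 29 was 0.583 to 1.07 in normoxia, with a median of 0.996, and 1.45 to 2.10 in hypoxia, with a median of 1.67. The SD of that log2 ratio was 0.33 and 0.21, where counting error gives 0.27 and 0.14. All hypoxia ratios lay above all normoxia ratios, although the shares of both members overlapped between groups. The difference in log2 ratio was 0.90 (exact permutation p = 0.00216, the smallest possible, 0.00433 adjusted over 6 pairs; n = 6 each). Core features 48 and 49 had a ratio of 1.17 to 2.50 in normoxia and 0.545 to 0.981 in hypoxia, a difference of -0.85 (exact permutation adjusted p = 0.00433). The ratio of core feature 7 to core feature 15 was 0.447 to 2.73 in normoxia and 3.81 to 10.2 in hypoxia, and that of core feature 7 to core feature 23 was 2.62 to 48.2 and 1.06 to 3.22 (exact permutation adjusted p = 0.00433 and 0.00974). These ratios were examined after the pairs had been found, and core feature 15 had itself been called lower. The highest normoxia ratios of core feature 7 to core feature 23 rest on 8, 6 and 4 reads of the latter, in normoxia 3, 5 and 6. The SD of that log2 ratio in normoxia was 1.95, where counting error gives 0.45. All 4 differences stayed past the threshold without any 1 library, with 0.71 to 0.95 for core features 24 and 29 and -0.92 to -0.70 for 48 and 49.

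**Figure D5:**
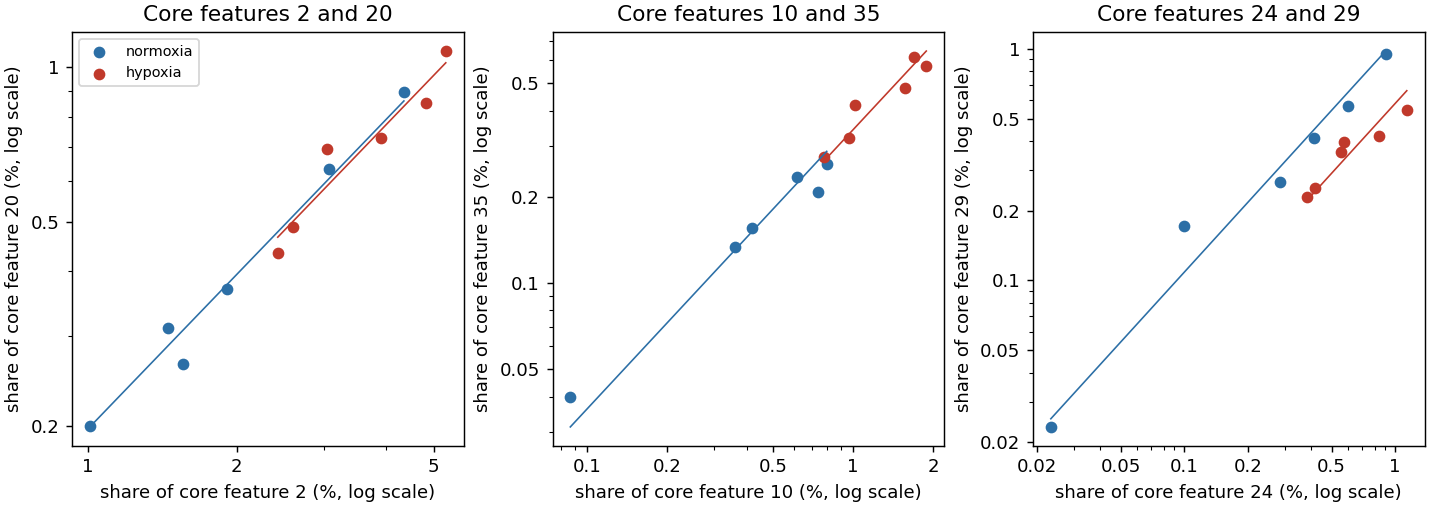
Shares of 3 pairs of core features, in percent on log axes, in the 6 normoxia (blue) and 6 hypoxia (red) libraries. Each line has the group's geometric mean ratio. For core features 2 and 20 and for 10 and 35 the lines of both groups nearly coincide, while for 24 and 29 the hypoxia line is lower, with a median ratio of 1.67 against 0.996.

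Members were not simply the most abundant features. They included 9 of the 10 features that ranked first by mean share over the 12 libraries and 34 of the leading 64, and the smallest member ranked 313. Mean shares ran from 3.18% for core feature 1 to 0.0506% for core feature 64. Just inside the rule, 8 members had under 10 reads in some library, among them core feature 63 with 2 reads in normoxia 3, and core features 23 and 26 with 4 reads in normoxia 6 and normoxia 2. Just outside it, 35 features were found in 11 libraries, with mean shares from 0.0255% to 1.58%. Of these 14 lacked reads in hypoxia 4, 5 in normoxia 5, 4 in hypoxia 5 and at most 3 in any other library. Together the 35 made up 7.37% of hypoxia reads and 11.6% of normoxia reads. By these means they took up less of the reads in hypoxia, unlike the core. The largest of them lacked reads in hypoxia 5 and had mean shares of 0.531% in hypoxia and 2.63% in normoxia.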

How the data were processed

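The main table deposited by the authors gives reads as whole-number counts, with no normalization visible in its values, and the smallest count above 0 is 2. A second deposited table gives tag counts of each library and, in percent, its bases at quality Q30. Its 6 lines that match no sample were not used. Per the labels' protocols, the amplicon was the V3 and V4 regions, sequenced as read pairs. What denoised and filtered the reads is not given in the sources used here. All members, lists and tests were chosen with earlier results of these data known.

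A share is a count over the library's total over all features. The test of hypoxia against normoxia was that of edgeR 4.0.16 (TMM factors and library sizes over the 554 tested features, quasi-likelihood test, two-sided, Benjamini-Hochberg adjustment over all of them, threshold 0.05), with DESeq2 1.42.0 and limma 3.58.1 as alternatives. SEs are the log2 fold change over the square root of F. Exact permutation tests were two-sided, over 462 equal splits, or over 518400 arrangements within groups for pairs of members. With 462 splits the smallest p is 0.00216. The steps were tested on simulated data.

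Members named are those past the edgeR threshold, the 10 largest, the 10 with the largest difference, the 3 steadiest and 3 most variable, and those of the 3 closest co-varying pairs; others were named after their values were seen. The labels name no cage or animal, so p-values measure only how these samples spread, and that spread may be technical. Intervals cover counting error only: the widest 95% Wilson interval of a core share was 52.1% to 53.4%, in hypoxia 4. The same-numbered libraries of both groups did not deviate together (correlations from -0.05 to 0.10).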

Additional observations from a re-analysis of the deposited data

Results flagged for a closer look

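Among 66 groups of 6 values, 11 held a library far from the others. The cutoff marks about 1 in 20 groups of independent, normally distributed values. Shares and measures of the same library need not behave so, and the 11 are not read as an excess. Normoxia 2 held core feature 1 at 5.12% (the next normoxia library 1.53%). Hypoxia 1 held core feature 3 at 1.75% (next 0.832%). Normoxia 4 held core feature 6 at 1.07% (next 0.48%), normoxia 3 held core feature 12 at 0.645% (next 0.253%), and normoxia 5 held core feature 13 at 0.878% (next 0.325%). Hypoxia 6 held core feature 37 at 1.76% (next 0.263%). These 6 shares come from 6 different libraries. The other 5 values are measures of whole libraries. Hypoxia 4 had 38.2% of tags counted (next 67.7%) and 78.6% of bases at Q30 (next 88.9%). Normoxia 6 had 70.8% of tags counted (next 82.7%), 88.2% of bases at Q30 (next 92.8%) and 519 features found (next 873).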

How the results depend on the processing

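The core share difference of 14.96 points stayed between 11.7 and 16.1 under the alternatives run, and the 48 members with a higher mean share between 47 and 50, except for 35 as a share of core reads. The rule found 56 features with at least 10 counts in every library, 62.7 on average after thinning to 22704 reads, 78 without hypoxia 4 and 89 without hypoxia 4 and normoxia 6. Members called higher (5) and lower (2) depended on most choices. They were 10 and 4 with DESeq2, 11 and 1 with exact permutation of shares, 2 and 2 with library sizes over all features (an alternative chosen after seeing the data), 6 and 1 with centred log ratios, 1 and 1 with 10 counts in at least 6 libraries, and 0 and 1 without a filter by edgeR, where 7 members were higher at an unadjusted p under 0.05. Without 1 library they ran from 1 to 3 and from 1 to 4, and without hypoxia 4 and normoxia 6 there were 3 and 2. With the replicate number as a block edgeR called 0 and 1 (8 higher at an unadjusted p under 0.05). Since the numbers do not pair the libraries, this is not read as weaker. In both directions DESeq2 called 14 of 64 members and 141 of all 554 tested features, a smaller share of the members. The members' share was also smaller with centred log ratios (7 against 155) and with library sizes over all features (4 against 105). It was smaller too with 10 counts in at least 6 libraries (2 against 20 of 317). Exact permutation of shares called a larger share of members (12 against 61). The totals over all features can include features with reads in 1 group alone, which no member can have, so these shares are not like for like. In the main fit 10.9% of members passed, against 19.3% of all tested features and 3.25% of those with reads in both groups. Co-varying pairs (6) numbered 3 with centred log ratios, 2 with ranks, 2 to 6 without 1 library and 0 without hypoxia 4 and normoxia 6 by exact permutation (189 at an unadjusted p under 0.05), where the smallest possible p is 6.94e-05. Separated members (8) ran from 8 to 14 without 1 library, the 14 without normoxia 5. Leaving out a library cannot undo a separation, so this count could not fall below 8. The log2 fold change of core feature 37 ran from -0.47 to 1.39 without 1 library, below 0 only without hypoxia 6. The cause of these changes was not tested.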
